A study of Mus musculus with 4 samples.

Results

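Of the 22138 genes measured, 10 were taken as core genes of the antioxidant response driven by the transcription factor NRF2. They were picked by symbol, and the rule uses no measured value: Nfe2l2, which encodes NRF2; Keap1, which encodes its inhibitor; and 8 target genes of oxidative defence, Hmox1, Nqo1, Gclc, Gclm, Gsr, Txnrd1, Prdx1 and Srxn1. The choice of these 10 genes was nonetheless made with earlier results of these data known. RNA was sequenced from the female mouse embryonic stem cell line TT2 (C57BL/6xCBA), grown without feeder cells in serum with the cytokine LIF. Cells received control siRNA (n = 2 libraries) or siRNA against Hnrnpk (n = 2 libraries), at 100 nM and again at 50 nM 24 hours later, and RNA was taken about 72 hours after the second transfection. No other treatment or genotype is named for either group, and both groups went through both transfections. hnRNP K is an RNA- and DNA-binding protein, and the series places it in silencing by the histone methyltransferase SETDB1. The comparison asked how the antioxidant genes stood after Hnrnpk depletion.

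In unstressed cells KEAP1 hands newly made NRF2 to a CUL3 ubiquitin ligase, and the protein is degraded. Oxidants and electrophiles modify cysteines of KEAP1, NRF2 then accumulates, pairs with a small MAF protein and binds antioxidant response elements near its targets, while BACH1 represses some of the same elements. NRF2 is therefore controlled largely at the level of the protein, which was not measured here. Its targets make glutathione, recycle glutathione and thioredoxin, reduce peroxides and quinones, and break down heme.

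In the Hnrnpk siRNA libraries 6 of the 10 genes were higher at an adjusted p under 0.05 (limma across 12486 genes, Benjamini-Hochberg), and none was called lower. Hmox1 rose 3.86-fold and Nqo1 2.07-fold by the ratio of mean RPKM, followed by Gclm at 1.51-fold, Nfe2l2 at 1.32-fold, Txnrd1 at 1.25-fold and Gclc at 1.14-fold. Gsr, Prdx1, Srxn1 and Keap1 did not pass the test. Over all genes tested, 32.2% were called higher and 35% lower, 67.2% in all, so a call by itself sets a gene little apart in these libraries. A rise of at least 2-fold (a log2 change of at least 1) was called for 4% of the genes tested and for 2 of the 10, Hmox1 and Nqo1. None was called lower by at least 2-fold, as 4.52% of the genes tested were. For 8 of the 10 genes each Hnrnpk siRNA library exceeded each control library, and for 1 (Keap1) each was lower, where the same held for 41.2% and 43.5% of all genes tested. The groups thus stayed apart for 9 of the 10 genes, against 84.7% of all genes tested, and overlapped for Srxn1. All 10 genes passed the filter on low values, with the lowest value in any library at 6.79 RPKM.

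**Figure D1:**
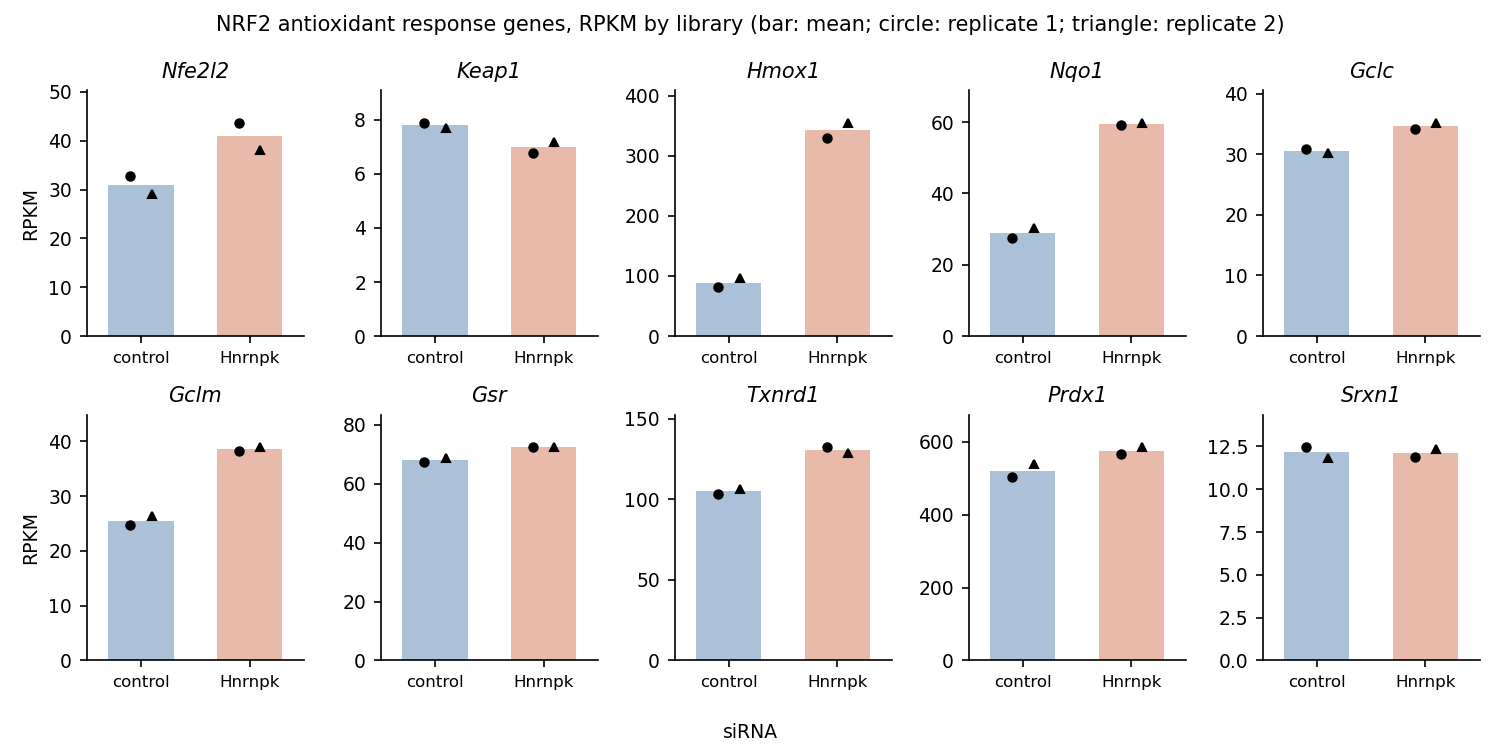
RPKM of each of the 10 genes in the 4 libraries, on a linear axis from 0 that differs between panels; bars are means of 2 libraries, circles replicate 1 and triangles replicate 2. Hmox1 and Nqo1 show the widest gaps between groups in proportion to their level, and the 2 groups of Srxn1 overlap.

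The targeted gene was checked in every library. Hnrnpk stood at 236 and 226 RPKM after control siRNA, against 67.99 and 70.5 RPKM after Hnrnpk siRNA, in the direction of the labels (log2 change -1.73, limma adjusted p = 6.59e-08). Another gene in the table, Gm7964, matches its transcript at 99.2% identity over 1378 bases, so how reads were split between them is uncertain. The 10 embryonic stem cell markers checked lay between 71.3 and 989 RPKM in all libraries, with 2 called higher and 4 lower. Of the 7 fibroblast markers, 5 were too low to test, 2 were called lower, and their summed level was 8.02 to 9.46 RPKM against 4.08 to 4.32 RPKM after Hnrnpk siRNA. Markers of other early lineages moved with the groups: 6 of 8 primitive endoderm markers were higher (summed level 20.95 to 21.8 RPKM against 62.8 to 64.6 RPKM), as were 5 of 8 trophectoderm markers, with 1 lower (69.6 to 72.7 RPKM against 96.7 to 102 RPKM), and 5 of the 7 two-cell-like markers, of which the other two had no match in the table (0.377 to 0.406 RPKM against 27.2 to 30.9 RPKM). No marker was at 0 in all 4 libraries. These lists moved with the same groups as the antioxidant genes, and their part in the values below was not tested. In bulk RNA, a change in the share of cells of a type and a change in RNA per cell cannot be told apart. Relative to the deepest library, depth was estimated to range down to 0.882, from the steps between low values. Each estimate rested on a ratio held by 13.0% to 16.5% of the low values compared.

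The promoters of the genes that were matched in RefSeq (GRCm38.p6) are shown because NRF2 acts through short DNA elements near its targets. The window ran from 250 bases before the annotated start to 50 after it. The motif searched was the core of the antioxidant response element, TGACNNNGC, on both strands, and it was present in 12.39% of the 32851 windows of all genes. Windows were matched for 7 of the 10 genes, 9 windows in all because Txnrd1 has 3, and 5 of the 7 genes had a match, each in a single window. Hmox1, Gclc and Gsr had no window. The matched stretches are given on the strand of the gene, 5′ to 3′, with the match in capitals:
Nfe2l2: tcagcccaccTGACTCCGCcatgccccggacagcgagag
Gclm: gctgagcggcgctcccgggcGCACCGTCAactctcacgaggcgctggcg
Txnrd1: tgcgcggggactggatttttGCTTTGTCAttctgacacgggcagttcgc
Prdx1: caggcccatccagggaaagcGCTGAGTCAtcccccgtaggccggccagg
Srxn1: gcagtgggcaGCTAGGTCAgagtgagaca

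Measured from the start site, the first base of the match lay 240 bases before it in Nfe2l2 (chr2:75704875-75704913, minus strand), 134 before it in Gclm (chr3:122245403-122245451, plus strand), 92 before the second of the Txnrd1 starts (chr10:82859094-82859142, plus strand) and 133 before it in Prdx1 (chr4:116685446-116685494, plus strand). In Srxn1 it lay 28 bases after the start (chr2:152105542-152105570, plus strand), so in transcribed sequence. The coordinates are those of the printed stretches. Only the Prdx1 match, read on the minus strand, was TGACTCAGC, the form that also holds an AP-1 site (TGACTCA); that longer form was present in 0.45% of all windows and TGACTCA in 5.2%, both strands counted. Prdx1 and Srxn1 had 2 TGACTCA matches each, 1 of which overlaps the capitals in Prdx1. In Srxn1 both lay before the start and are read on the minus strand. On the gene strand, 1 of them stands in the letters TGAGTCAGC, which differ from TGACTCAGC at 1 base. The motif searched cannot match those letters, so the printed Srxn1 stretch leaves them out. Genes with a match thus included 3 that rose (Gclm, Nfe2l2, Txnrd1) and 2 that did not pass the test (Prdx1, Srxn1). Nqo1, which rose 2.07-fold, and Keap1 had none in their windows. The 250 bases before the Nqo1 start (chr8:107403206-107403455, minus strand) are given as those of the strongest rise among the matched genes:
Nqo1: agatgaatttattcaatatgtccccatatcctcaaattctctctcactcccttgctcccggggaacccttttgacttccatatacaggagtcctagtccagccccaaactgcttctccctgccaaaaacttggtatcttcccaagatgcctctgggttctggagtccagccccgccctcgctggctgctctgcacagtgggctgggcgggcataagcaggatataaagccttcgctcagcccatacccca

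A match is a description of the letters, not of binding. A window without one says nothing of elements further away or of forms that the searched motif does not cover.

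Of the activator and its inhibitor, Nfe2l2 rose and Keap1 did not pass the test. Nfe2l2 (ENSMUSG00000015839, GRCm38 chromosome 2, 75675513 to 75704641, minus strand) measured 32.8 and 29.1 RPKM after control siRNA, against 43.7 and 38.1 RPKM after Hnrnpk siRNA. Both Hnrnpk siRNA libraries were above both controls, but the libraries within each group differed by several RPKM. The means were 30.9 ± 2.62 and 40.9 ± 3.98 RPKM (SD, n = 2 each), and the log2 change of RPKM + 0.5 was 0.40 (SE 0.0847, limma adjusted p = 0.00229). Keap1 (ENSMUSG00000003308, chromosome 9, 21229730 to 21239361, minus strand), the lowest of the 10 genes, had 7.90 and 7.69 RPKM after control siRNA, against 6.79 and 7.19 RPKM. The groups did not overlap, but the log2 difference, -0.15 with an SE of 0.0749, did not pass (limma adjusted p = 0.107), and it was -0.016 with GC trends removed. An antisense gene, Gm16754, overlaps Keap1, and 14.2% of the longest coding Keap1 transcript is shared with it; without strand, reads of the pair cannot be told apart. Within each library, the ratio of Nfe2l2 to Keap1 RPKM was 4.14 and 3.78 after control siRNA, against 6.44 and 5.30 after Hnrnpk siRNA.

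Among the 10 core genes, those of heme and quinone detoxification had the largest rises. Hmox1 encodes heme oxygenase 1, which splits heme into biliverdin, carbon monoxide and iron, and Nqo1 encodes a quinone reductase. Hmox1 (ENSMUSG00000005413, chromosome 8, 75093621 to 75100589, plus strand) measured 80.9 and 96.4 RPKM after control siRNA, against 329 and 355 RPKM after Hnrnpk siRNA. The gap between groups was far wider than the spread within either. The means were 88.7 ± 10.9 and 342 ± 18.4 RPKM (SD, n = 2 each), a log2 difference of 1.95 (SE 0.0879, limma adjusted p = 1.95e-07), and 91 of the 12486 genes tested had a larger rise. Hmox2, the constitutive heme oxygenase, had 29.4 and 28.99 RPKM against 30.6 and 32.4 RPKM and was not called (log2 change 0.11, limma adjusted p = 0.163). Cdip1, on the other strand, shares 51.7% of the longest coding Hmox2 transcript and stood at 10.6 and 10.8 RPKM against 14.6 and 14.7 RPKM, so the Hmox2 level and the ratio to it are uncertain. The ratio of Hmox1 to Hmox2 within a library was 2.75 and 3.32 after control siRNA and 10.77 and 10.96 after Hnrnpk siRNA.

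Nqo1 (ENSMUSG00000003849, chromosome 8, 107388225 to 107403206, minus strand) had 27.5 and 30.2 RPKM after control siRNA, against 59.3 and 59.9 RPKM after Hnrnpk siRNA. The Hnrnpk siRNA libraries lay close together and well above both controls. The means were 28.9 ± 1.86 and 59.6 ± 0.407 RPKM (SD, n = 2 each), with a log2 difference of 1.04 (SE 0.0668, limma adjusted p = 1.47e-06), exceeded by the rise of 449 genes. The difference for Nqo1 was 0.970 without control replicate 1 and 0.995 under quantile normalization, both just short of 2-fold. Its paralog Nqo2, which uses a different reductant, went the other way, from 8.04 and 7.58 RPKM to 6.42 and 6.51 RPKM (log2 change -0.25, limma adjusted p = 0.0132; 19.9% of its transcript matches another gene). The ratio of Nqo1 to Nqo2 within a library was 3.43 and 3.98 after control siRNA and 9.25 and 9.19 after Hnrnpk siRNA.

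Glutathione, the main small thiol of the cell, is made in a rate-limiting step by an enzyme of a catalytic subunit, GCLC, and a modifier subunit, GCLM, which lowers the amount of substrate the enzyme needs. Gclm (ENSMUSG00000028124, chromosome 3, 122245557 to 122270732, plus strand) had 24.8 and 26.3 RPKM after control siRNA, against 38.3 and 39.00 RPKM after Hnrnpk siRNA, a log2 difference of 0.59 (SE 0.0639, limma adjusted p = 3.21e-05). Gclc (ENSMUSG00000032350, chromosome 9, 77754535 to 77794485, plus strand) had 30.8 and 30.2 RPKM against 34.2 and 35.2 RPKM, a log2 difference of 0.18 (SE 0.0615, limma adjusted p = 0.023). Gm17494 overlaps Gclm on the other strand and Gm6061, a pseudogene absent from the measured genes, on its own. Both subunits were above the controls in both Hnrnpk siRNA libraries, Gclm by the wider margin. The Gclm level was under the Gclc level in the control libraries, at 0.803 and 0.871 of it, and over it in the Hnrnpk siRNA libraries, at 1.12 and 1.11. The call of Gclc was lost under quantile normalization (limma adjusted p = 0.0533), without control replicate 2 (0.0669), without Hnrnpk siRNA replicate 1 (0.0606) and without Hnrnpk siRNA replicate 2 (0.127), over a range of 0.0135 to 0.127 among its 15 alternatives.

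Gsr encodes glutathione reductase, which turns oxidised glutathione back with NADPH. Gsr (ENSMUSG00000031584, chromosome 8, 33652523 to 33698163, plus strand) measured 67.2 and 68.7 RPKM after control siRNA, against 72.5 and 72.4 RPKM after Hnrnpk siRNA. Its groups did not overlap, but the difference was small and was not called (log2 change 0.092, SE 0.0596, limma adjusted p = 0.196); it was 0.056 under quantile normalization and 0.059 with length trends removed.

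**Figure D2:**
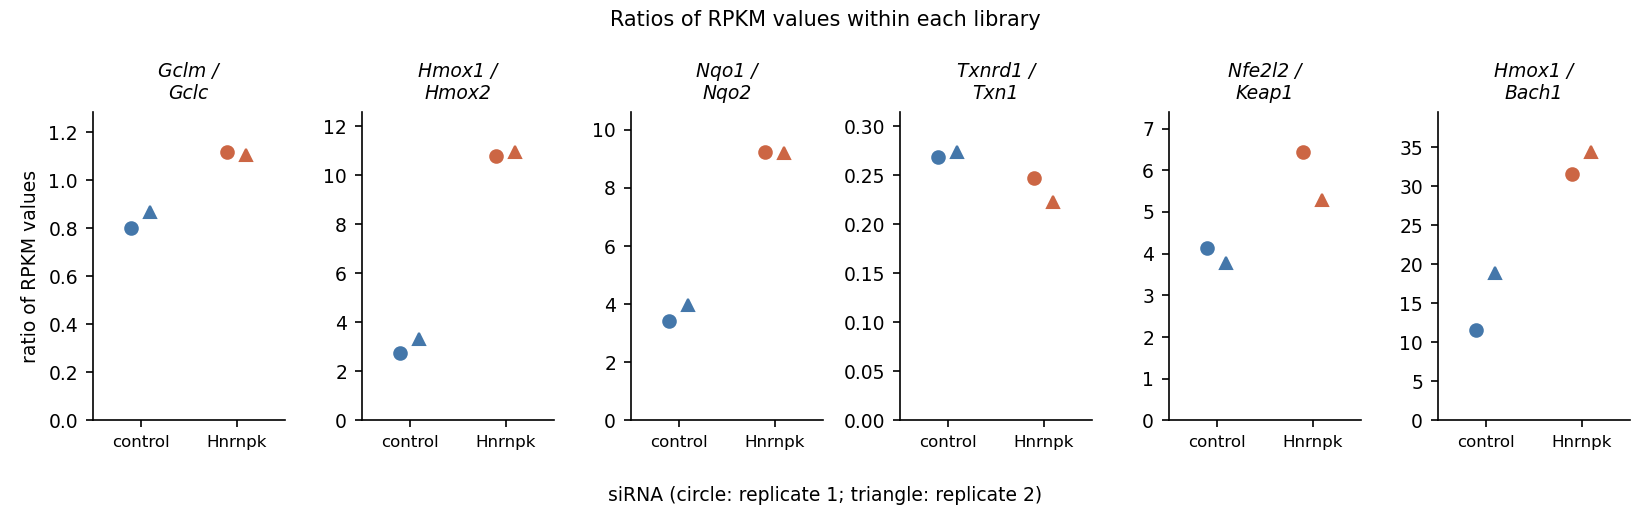
RPKM ratios of gene pairs within each library, on linear axes from 0; circles are replicate 1, triangles replicate 2, blue control siRNA and orange Hnrnpk siRNA. The ratios of Gclm to Gclc, Hmox1 to Hmox2 and Nqo1 to Nqo2 were higher in both Hnrnpk siRNA libraries, and Txnrd1 to Txn1 was lower.

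The thioredoxin branch reduces peroxides through peroxiredoxins, which thioredoxin and thioredoxin reductase keep active. Txnrd1 (ENSMUSG00000020250, chromosome 10, 82833951 to 82897712, plus strand), the cytosolic thioredoxin reductase and a selenoprotein, had 103 and 107 RPKM after control siRNA, against 133 and 129 RPKM after Hnrnpk siRNA. Its log2 change was 0.31 (SE 0.0615, limma adjusted p = 0.00137), and the libraries within a group lay close together. Txnrd1 overlaps 2 genes on the other strand and Eid3 on its own. Thioredoxin itself, Txn1, also rose, from 385 and 389 RPKM to 537 and 578 RPKM (log2 change 0.52, limma adjusted p = 0.000148; 29.3% of its transcript matches Txn-ps1), and the ratio of Txnrd1 to Txn1 went from 0.269 and 0.274 to 0.247 and 0.223. The paralogs of Txnrd1, the mitochondrial Txnrd2 and the testis-enriched Txnrd3, were lower: Txnrd2 had a log2 difference of -0.29 (limma adjusted p = 0.0123) and Txnrd3 one of -0.83 (limma adjusted p = 2.65e-05), at means of 3.10 and 3.45 RPKM after control siRNA.

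Prdx1 (ENSMUSG00000028691, chromosome 4, 116685544 to 116700822, plus strand), a peroxiredoxin that removes hydrogen peroxide, was the most abundant of the 10 transcripts. It had 503 and 539 RPKM after control siRNA, against 566 and 586 RPKM after Hnrnpk siRNA, a log2 difference of 0.15 (SE 0.0736, limma adjusted p = 0.106) that did not pass; quantile normalization gave -0.011, removal of GC trends 0.044, and the fit without control replicate 1 gave 0.096. Over 100 bases or more at 95% identity, 26.0% of its longest coding transcript matched 2 other genes, and the copy in the table, Gm7204, was under 1 RPKM in every library. Srxn1 (ENSMUSG00000032802, chromosome 2, 152105516 to 152111376, plus strand) encodes sulfiredoxin, which restores peroxiredoxins that have been over-oxidised. It had 12.5 and 11.8 RPKM after control siRNA, against 11.9 and 12.4 RPKM after Hnrnpk siRNA. The groups overlapped, the log2 difference was -0.0046 (SE 0.0702, limma adjusted p = 0.958), and its sign turned under 5 of the 15 alternatives, none of which called it.

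Ordered by mean RPKM, which is scaled to transcript length, the control libraries ran from Prdx1 (521) through Txnrd1 (105), Hmox1 (88.7), Gsr (67.96), Nfe2l2 (30.9), Gclc (30.5), Nqo1 (28.9), Gclm (25.5) and Srxn1 (12.2) to Keap1 (7.79). The Nfe2l2 libraries overlapped those of both Gclc and Nqo1 there, so these neighbours did not differ beyond their spread. In the Hnrnpk siRNA libraries Hmox1 (342) stood above Txnrd1 (131), and Nqo1 (59.6) above Nfe2l2 (40.9) and Gclc (34.7), while Gclm (38.7) overlapped Nfe2l2. Prdx1 remained first and Keap1 last.

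The median log2 change of the 10 genes was 0.25, against -0.015 over all genes tested, and it was 0.18 under quantile normalization. The genes ranged from -0.15 for Keap1 to 1.95 for Hmox1. Across the 15 alternatives 5 or 6 of the 10 were called higher and none lower.

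**Figure D3:**
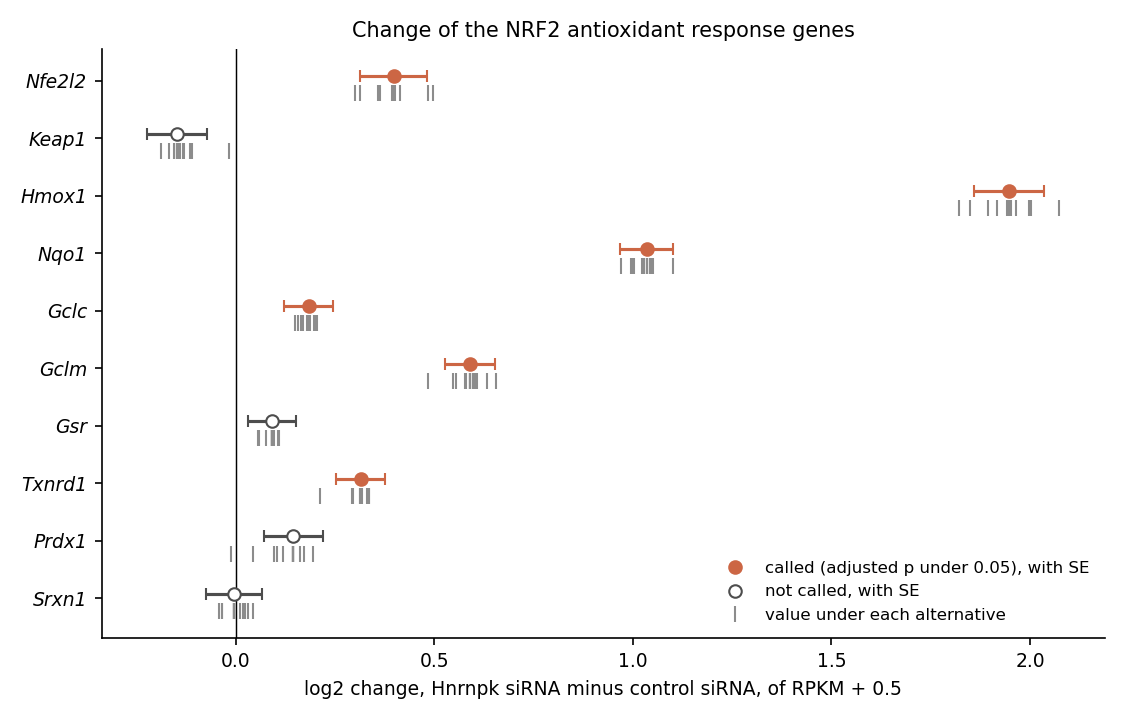
Log2 change of RPKM + 0.5 (Hnrnpk siRNA minus control siRNA) of the 10 genes, as points with SE, filled where called; grey ticks are the values under the 15 alternatives. The ticks of Srxn1 fall on both sides of 0 and 1 tick of Prdx1 lies below 0; those of Hmox1 run from 1.82 to 2.07.

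Among 16 regulators and partners of NRF2, 13 were tested. Of these, 5 were called higher (38.5%, against 32.2% of all genes tested) and 1 lower (7.69%, against 35%). Their median log2 change was 0.18, and it was 0.11 without Hnrnpk siRNA replicate 1. The rises were led by Sqstm1 and Bach1. Sqstm1 encodes p62, an autophagy receptor that binds KEAP1 and is itself an NRF2 target; it had 102 and 88.7 RPKM after control siRNA, against 192 and 199 RPKM (log2 change 1.03, SE 0.0775, limma adjusted p = 3.47e-06). Mrnip overlaps it on the other strand and accounts for the 21.8% of its transcript shared with another gene. Bach1, the repressor that competes with NRF2 at Hmox1, also rose, from 7.01 and 5.09 RPKM to 10.4 and 10.3 RPKM (log2 change 0.75, SE 0.121, limma adjusted p = 0.000438). The control libraries of Bach1 lay apart, and without one or the other of them its log2 change was 0.53 or 0.96. The ratio of Hmox1 to Bach1 was 11.5 and 19.0 after control siRNA, against 31.6 and 34.4 after Hnrnpk siRNA.

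Small MAF proteins are the partners NRF2 needs to bind DNA. Maff rose from 2.14 and 2.02 RPKM to 2.54 and 3.22 RPKM (log2 change 0.38, limma adjusted p = 0.0107), a call that was lost without Hnrnpk siRNA replicate 2 (0.24, limma adjusted p = 0.177) and with no filter on low values (0.0625), over a range of 0.00164 to 0.177 among its alternatives. Mafg rose too (log2 change 0.34, limma adjusted p = 0.00136), and Mafk was not called (log2 change 0.0057, limma adjusted p = 0.961). Sirt7, which overlaps Mafg on its own strand, went from 4.26 and 4.25 RPKM to 6.54 and 7.24 RPKM. Cul3 and Rbx1, of the ligase that degrades NRF2, were not called, with log2 changes of 0.083 and -0.092, and 19.5% of the Rbx1 transcript matches Rbx1-ps. Dpp3, a peptidase that binds KEAP1, fell from 79.6 and 76.3 RPKM to 55.6 and 57.6 RPKM (log2 change -0.46, SE 0.0619, limma adjusted p = 0.000134). The number of this list called higher depended on the processing: it was 8 with median-ratio scaling and without control replicate 1, and 9 with length trends removed. The number called lower was 2 without one or the other Hnrnpk siRNA library and 3 with no filter.

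A second list held 26 further NRF2 targets of glutathione use and detoxification, of which 19 were tested. Of these, 6 were called higher (31.6%) and 5 lower (26.3%), close to the shares over all genes. A log2 change of at least 1 in either direction was seen for 5 of the 19, against 1063 of all 12486 genes tested. The median log2 change was 0.045. It was -0.059 without Hnrnpk siRNA replicate 2, -0.022 without control replicate 2 and -0.020 under quantile normalization. With no filter it was 0.0082, with length trends removed 0.0032, and without Hnrnpk siRNA replicate 1 it was 0.077. Gss, glutathione synthetase, which completes the synthesis that the GCLC and GCLM enzyme begins, went from 3.30 and 3.48 RPKM to 9.25 and 10.1 RPKM (log2 change 1.38, SE 0.0812, limma adjusted p = 8.98e-07). It overlaps 3 genes on the other strand. Ptgr1, a reductase of prostaglandins and reactive aldehydes, rose from 24.6 and 22.04 RPKM to 54.9 and 59.7 RPKM (log2 change 1.28, limma adjusted p = 9.09e-07). Ephx1, microsomal epoxide hydrolase, rose from 14.04 and 8.38 RPKM to 25.7 and 26.9 RPKM (log2 change 1.24, limma adjusted p = 0.000189), with control libraries that lay far apart; the value was 1.60 without the first of them and 0.88 without the second.

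Falls in this list were led by Abcc1, an exporter of glutathione conjugates, from 8.75 and 8.55 RPKM to 3.88 and 3.81 RPKM (log2 change -1.07, SE 0.0754, limma adjusted p = 2.35e-06). Gstm1, a glutathione transferase, fell from 95.6 ± 8.06 to 60.8 ± 1.07 RPKM, and Gpx2, a glutathione peroxidase, from 8.41 ± 0.572 to 5.27 ± 0.456 RPKM (SD, n = 2 each), which were log2 changes of -0.64 and -0.63. Gstm1 and Gpx2 share 51.0% and 53.6% of their longest coding transcript with Gstm2-ps1 and Gpx2-ps1, so their levels are uncertain. Slc7a11, the cystine carrier that feeds glutathione synthesis and a much-used NRF2 target, was chosen here after its values were seen: it measured 0.106 and 0.304 RPKM after control siRNA, against 0.0931 and 0.0795 RPKM after Hnrnpk siRNA, too low to test. The list's count called lower was 3 without control replicate 1.

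A further 16 targets of thioredoxin, NADPH, heme and iron metabolism gave 15 tested genes, with a median log2 change of 0.34. Of these, 9 were called higher (60%, against 32.2% of all genes tested) and 3 lower (20%, against 35%). The gene too low to test, Osgin1, measured 0.0434 and 0.0153 RPKM after control siRNA, against 0.356 and 0.333 RPKM after Hnrnpk siRNA. Sqstm1 and Mafg stand in this list as well as among the regulators. The ferritin subunits, which store the iron that heme breakdown releases, were among its largest rises. Ftl1 went from 970.0 ± 57.3 to 1999 ± 49.04 RPKM and Fth1 from 1241 ± 66.9 to 2404 ± 92.9 RPKM (SD, n = 2 each), which were log2 changes of 1.04 and 0.95 (limma adjusted p = 5.56e-06 and 1.18e-05). Quantile normalization gave 0.62 for Fth1 and 0.76 for Ftl1. All of the Ftl1 transcript matches among 13 other genes at 95% identity or more, so its value is uncertain, although the copy in the table, Ftl1-ps1, was under 1 RPKM in every library.

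Enzymes of the pentose phosphate pathway, which supplies NADPH to GSR and TXNRD1, differed in direction. Tkt, transketolase, fell from 131 and 127 RPKM to 70.9 and 73.2 RPKM (log2 change -0.84, SE 0.0617, limma adjusted p = 3.12e-06), and G6pdx, the glucose-6-phosphate dehydrogenase of the X chromosome, from 50.9 and 54.4 RPKM to 43.4 and 43.6 RPKM (log2 change -0.27, limma adjusted p = 0.00392). Taldo1, transaldolase, rose (log2 change 0.21, limma adjusted p = 0.018), and Pgd was not called (-0.14, 0.0621). Me1, malic enzyme, had a log2 difference of 0.54 and Idh1, isocitrate dehydrogenase, one of 0.40 (limma adjusted p = 0.000235 and 0.00186). The level of Me1 is uncertain, since 60.1% of its longest coding transcript matches 3 other genes. Slc6a9, a glycine transporter, fell from 2.12 and 3.59 RPKM to 1.75 and 1.72 RPKM (log2 change -0.55, limma adjusted p = 0.0164). That value rested on the control libraries: it was -0.23 without control replicate 2 and -0.87 without control replicate 1, and the call was lost under quantile normalization (limma adjusted p = 0.0586), with GC trends removed (0.0665) and with no filter (0.107), over a range of 9.91e-07 to 0.107 among its alternatives. Ccdc24 and Gm17114, on the other strand, share 44.8% of the Slc6a9 transcript.

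For comparison, 29 antioxidant enzymes that were not placed among the NRF2 targets gave 28 tested genes. Whether NRF2 regulates any of them was not tested, so the list is not a reference free of NRF2 targets. Of these, 12 were called higher (42.9%, against 32.2% of all genes tested) and 7 lower (25%, against 35%). Their median log2 change was 0.13, and it was 0.073 without Hnrnpk siRNA replicate 2. Glrx, glutaredoxin, which removes glutathione from proteins, went from 2.98 and 1.98 RPKM to 7.99 and 7.93 RPKM (log2 change 1.53, SE 0.136, limma adjusted p = 9.7e-06). Gpx1, the main cytosolic glutathione peroxidase, rose from 557 and 830.3 RPKM to 1459.8 and 1688 RPKM (log2 change 1.21, SE 0.160, limma adjusted p = 0.000119), with a wide spread between the control libraries. Gpx3, a secreted glutathione peroxidase, rose from 29.7 ± 3.66 to 53.1 ± 0.584 RPKM (n = 2 each, SD; log2 difference 0.83, limma adjusted p = 1.9e-05).

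Of the superoxide dismutases, the enzymes that turn superoxide into hydrogen peroxide, Sod1 was not called (log2 change 0.031, limma adjusted p = 0.765; 72.5% of its transcript matches Gm8566) and the mitochondrial Sod2 fell slightly (-0.16, 0.0443). Cat, catalase, rose (log2 change 0.47, limma adjusted p = 0.00036). Besides Txnrd3, the largest falls were Nnt, a mitochondrial enzyme that makes NADPH, from 7.10 ± 0.302 to 5.41 ± 0.119 RPKM, and Msra, which repairs oxidised methionine, from 5.63 ± 0.389 to 4.45 ± 0.0333 RPKM (SD, n = 2 each), which were log2 changes of -0.36 and -0.31. A further annotated Nnt entry shares 96.4% of its transcript. The call of Msra was lost without Hnrnpk siRNA replicate 1 (limma adjusted p = 0.0635) and without replicate 2 (0.0534), over a range of 0.00143 to 0.0635 among its alternatives. Without one or the other Hnrnpk siRNA library, 3 of the list were called lower in place of 7.

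**Figure D4:**
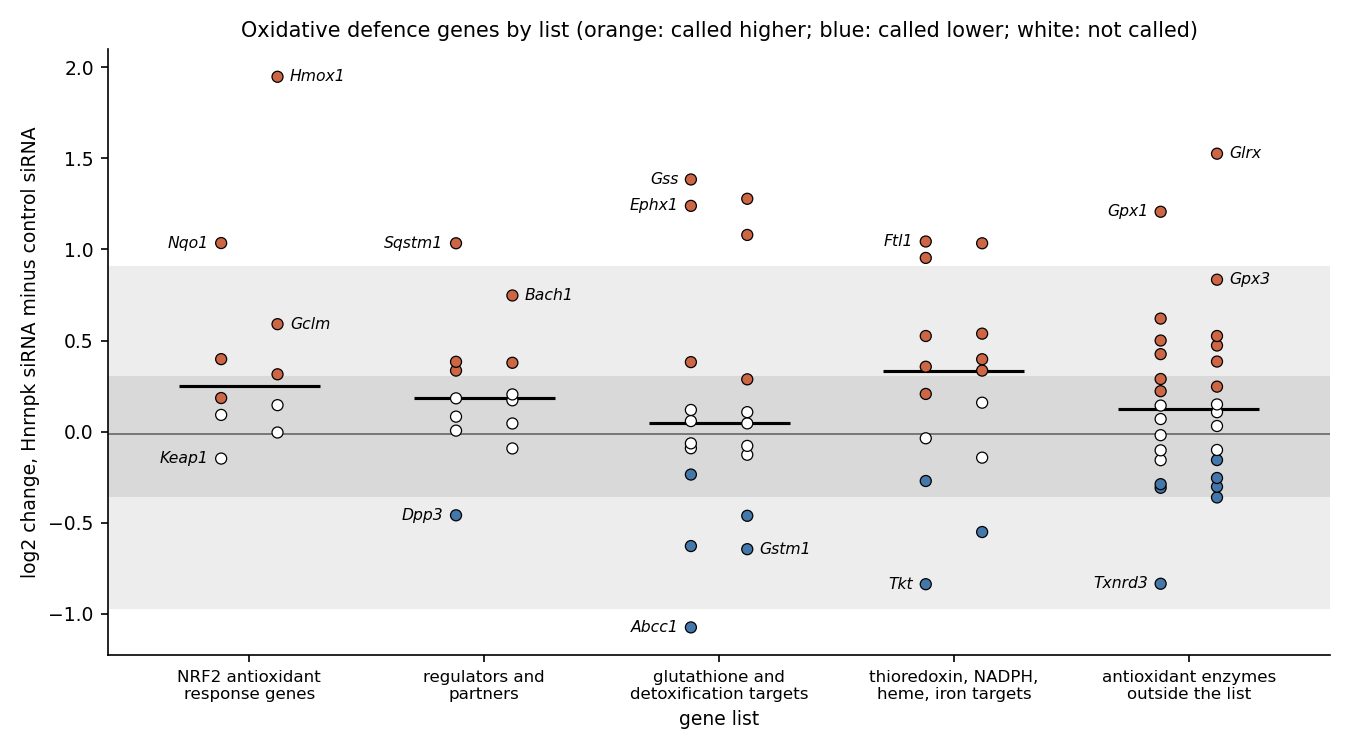
Log2 change (Hnrnpk siRNA minus control siRNA) of every tested gene in the 5 lists, with the list median as a black bar; the dark and light grey bands hold the 25th to 75th and the 5th to 95th percentile of all 12486 genes tested, and the grey line is their median. Each list holds genes called higher, and each list but that of the 10 core genes holds genes called lower.

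An exact permutation of 2 against 2 libraries reaches 0.333 at the lowest, and the calls above therefore depend on variance that limma shares between genes. The labels do not say that the libraries came from separate cultures, so the p-values measure only the spread between these libraries, which may be technical.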

How the data were processed

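Poly(A) or rRNA-depleted RNA (the labels state both) from 4 libraries was sequenced as paired ends, per the labels' protocols. The authors deposited RPKM values (reads scaled to transcript length and mapped reads) for 22138 genes, 1 column per library. BWA, SAMtools and the genome build mm9 are named in the submitters' processing notes; the annotation, the counting tool, the strand and how multiply matching reads were handled are not given in these sources. Positions, overlapping genes and transcripts come from GENCODE M21 on GRCm38, where 92.8% of the identifiers were found, and promoters from RefSeq (GRCm38.p6).

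Values were analysed as log2(RPKM + 0.5), which understates the change of low genes. The 12486 genes averaging 0.5 RPKM or more were fitted together with limma 3.58.1 in R 4.3.3 (mean-variance trend, moderated two-sided tests, Benjamini-Hochberg over all genes tested, called under 0.05). On simulated data for this comparison with 200 of 12486 genes changed, the fit called 72% of genes changed by 0.5 and 100% of those changed by 1, and 3 of its 175 calls were false. The simulated noise was drawn from the variance model that limma had fitted to these libraries. Far fewer genes were changed than the 67.2% called in the data, so these rates need not hold for the data. Similar transcripts were sought with BLAST 2.17.0 (95% identity over 100 bases). Relative depth was the commonest ratio between libraries of the low values of a gene; absolute depth was not recovered. Library columns were all distinct.

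The 10 genes and the 4 further lists were chosen with earlier results of these data known. Named genes are the 10, Hnrnpk and, from each further list, up to 3 called genes with the largest rises and 3 with the largest falls among those whose groups do not overlap. Hmox2, Nqo2, Txn1, Txnrd2, Mafg, Mafk, Cul3, Rbx1, Taldo1, Pgd, Me1, Idh1, Osgin1, Slc7a11, Sod1, Sod2 and Cat were added after their values were seen. Alternatives were 12 fixed with the design (added value, filter, scaling, variance trend, replicate block, each library left out) and 3 chosen after seeing the data (GC trend removed, length trend removed, robust variance model).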

Additional observations from a re-analysis of the deposited data

How the results depend on the processing

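Hmox1, Nqo1, Gclm, Txnrd1 and Nfe2l2 remained called higher under all 15 alternatives, and Keap1, Gsr, Prdx1 and Srxn1 were called under none. Under quantile normalization the median of the 10 genes was 0.18, Gclc had 0.15, Prdx1 -0.011 and Srxn1 0.018; Srxn1 had 0.012 with median-ratio scaling and 0.044 with GC trends removed; the cause was not tested. The regulators called higher numbered 8 with median-ratio scaling and 9 with length trends removed, and those called lower 3 with no filter, where more genes were tested. Leaving out 1 library at a time gave Srxn1 -0.041 to 0.032, Gclc 0.16 to 0.21, 5 to 8 regulators higher and 1 to 2 lower, 3 to 6 detoxification targets lower with a median of -0.059 to 0.077, a median of 0.26 to 0.37 for thioredoxin, NADPH, heme and iron targets, and 3 to 6 other antioxidant enzymes lower; a lone library is then assumed to vary like the rest. The labels give both groups replicate numbers 1 and 2, but same-numbered libraries shared little (correlation of deviations 0.027 across genes). With the replicate number as a block, 6 of the 10 genes were called higher and 0 lower, with 4162 genes called higher and 4460 lower over the table. No group held enough libraries for a check of single libraries against their group. RPKM values carry no counts, so no counting interval was given.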
